A study of Mus musculus with 4 samples.

Results

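The cells described here are monocytes that carry little complement C1q RNA, counted in 2 single-cell libraries of skeletal muscle from a mouse model of Duchenne muscular dystrophy (DMD). A barcode, which stands for 1 cell, was a member if it held at least 2 UMIs of Ly6c2, Ccr2 and Chil3 together, at least 5 of Lyz2, fewer than 5 of C1qa, C1qb and C1qc together, none of Flt3 and at most 2 of Csf3r and Retnlg together. A UMI is a molecular tag that stands for 1 counted RNA molecule. Barcodes with fewer than 200 detected genes or over 20% mitochondrial UMIs had been removed. Of 2356 kept barcodes, 180 were members, 90 of 1204 in the vehicle library and 90 of 1152 in the LNP-CRISPR library.

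LNP-CRISPR denotes lipid nanoparticles (LNP) that carry the gene-cutting CRISPR system, whose enzyme Cas9 was measured here as RNA, and the series asks which muscle cells receive it. The DMD model is shared by both groups, so no healthy muscle was compared. The vehicle group and the LNP-CRISPR group have 1 library each of cells labelled Bulk. The libraries made with a satellite cell isolation kit held 0 members among 1411 barcodes (vehicle) and 1 among 1907 (LNP-CRISPR) and are not used further. The Dmd allele, strain, age, muscle, dose, time after dosing and number of animals are not given in the sources used here. With 1 library per group there was no test, and a treatment difference cannot be told apart from a difference between animals or preparations. All intervals are 95% intervals for counting error only.

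Classical monocytes leave the bone marrow with the surface protein encoded by Ly6c2 and with Ccr2, the receptor that steers them towards the chemokine Ccl2. In injured muscle they follow neutrophils into the tissue and turn into macrophages, or into cells rich in MHC class II, the proteins that show peptides to T cells. C1q, the first component of the complement cascade, is a product of mature tissue macrophages, and phagocytes readily take up lipid particles from blood.

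Monocyte and leukocyte markers that the rule did not use were found in nearly all members. Levels are given as CPM, the UMIs of a gene summed over the members of a library per 1000000 nuclear-encoded UMIs. Cd14, a lipopolysaccharide co-receptor, was found in 88 of 90 vehicle and 90 of 90 LNP-CRISPR members, and Itgam (integrin CD11b) in 89 and 86. The leukocyte gene Ptprc (CD45) was found in 88 and 90. Among the genes of the rule, given as a description, Ly6c2 stood at 443 and 528 CPM, Ccr2 at 726 and 515, Chil3 at 1384 and 1254, and Lyz2 at 9888 and 10457. All 3 of Ly6c2, Ccr2 and Chil3 were present in 44 and 37 members, whereas 17 and 15 entered through Ccr2 alone. Their near-identical copies were rare: Ly6c1 had 6 and 9 UMIs and Chil4 none, while Lyz1 had 5 and 129, of which 1 LNP-CRISPR cell held 93.

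No C1q UMI was found in 77 of 90 vehicle and 75 of 90 LNP-CRISPR members. Just inside that threshold lay 13 and 15 members with 1 to 4 C1q UMIs. Just outside it, with 5 to 9 C1q UMIs and every other condition met, lay 2 and 5 barcodes, and a further 50 and 37 had 20 or more. Members with 2 or 3 marker UMIs numbered 4 and 7, and barcodes kept out only by a single marker UMI numbered 3 and 1.

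Depth was close in the 2 sets of members, with medians of 14302.5 UMIs and 3195.5 genes (vehicle) and 14423 UMIs and 3157 genes (LNP-CRISPR), although the shallowest LNP-CRISPR member had 2114 UMIs against 4549. The 2 libraries shared no barcode. Markers of several other cells were near 0, but those of neutrophils, of stromal cells and of T and NK cells, among others, differed between the libraries. The 11 neutrophil markers summed to 154 CPM (134–176) in vehicle and 725 CPM (681–772) in LNP-CRISPR members. Of them 8 and 9 were found, and the rule itself limits Csf3r and Retnlg. Ly6g and Camp were at 0 in both, whereas Cxcr2 stood at 0 and 6.59 CPM and Mmp8 at 86.1 and 156 CPM. In the 8 stromal markers the sums were 345 CPM (315–378) and 643 CPM (601–686). Mast cell and eosinophil or basophil markers had 0 UMIs in vehicle and 5 and 2 in LNP-CRISPR members. The 8 T and NK cell markers summed to 113 CPM (96.0–132) and 206 CPM (183–232). Gzma and Klrb1c were at 0 in both, and Cd3e, Cd3g, Trbc2 and Nkg7 in vehicle only. The 9 dendritic markers summed to 193 and 160 CPM, and the 6 endothelial markers to 8.75 and 2.20 CPM. Of these markers Clec9a, Siglech, Cdh5, Cldn5 and Emcn were at 0 in both, as was Flt3, which the rule fixes at 0.

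The share of monocytes was alike in the 2 libraries, at 7.48% (6.05–9.11, exact binomial) of vehicle and 7.81% (6.33–9.52) of LNP-CRISPR barcodes. The ratio was 1.05 (0.772–1.42), and 1.14 (0.845–1.55) with neutrophils left out of the total. By contrast, neutrophils, defined by Csf3r and Retnlg, numbered 29 and 125, a ratio of shares of 4.50 (2.99–7.0). For macrophages high in C1q (20 or more C1q UMIs) the numbers were 81 and 55, a ratio of 0.710 (0.494–1.01). The interval for monocytes thus held values on both sides of 1, while that for neutrophils lay far from 1.

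Set beside the C1q-high macrophages of the same libraries, the monocytes held more RNA of many classical monocyte genes. Of 6594 genes with enough UMIs in both libraries, 164 (2.49%) were at least 2-fold higher in monocytes in both and 340 (5.16%) at least 2-fold lower. The monocytes were chosen by low C1q and by monocyte genes, so these counts are descriptions. The macrophages were chosen without a limit on Ly6c2, Ccr2 or Chil3. Of them 50 of 81 in vehicle and 37 of 55 in LNP-CRISPR met every condition of the members but that on C1q. Of 23 classical monocyte genes 12 were among the higher and none among the lower. The haptoglobin gene Hp stood at 336 and 463 CPM in monocytes (vehicle, then LNP-CRISPR) and at 7.81 and 10.9 CPM in macrophages, and Plac8 at 783 and 855 against 62.5 and 30.1 CPM. Slpi, a secreted inhibitor of leukocyte proteases, was at 328 and 771 against 6.39 and 9.19 CPM.

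Tissue macrophage genes ran the other way, with 14 of 20 tested at least 2-fold lower in monocytes and none higher. Over all genes compared 5.16% were lower and 2.49% higher. Apoe, whose protein coats lipid particles, was at 2009 and 1271 CPM in monocytes and 15148 and 12640 CPM in macrophages. The mannose receptor gene Mrc1 stood at 277 and 277 against 1195 and 691 CPM, and Folr2, a marker of resident macrophages, at 3.65 and 10.2 against 146 and 115 CPM. Gpr34, a lipid receptor gene, had no UMI in the monocytes of either library and 78.1 and 40.9 CPM in macrophages. Of the 21 tested genes of glycolysis and hypoxia 7 were higher in monocytes and none lower, among them the glucose transporter Slc2a1 (222 and 311 against 89.5 and 99.4 CPM) and Hif1a (487 and 526 against 224 and 222 CPM). Of 23 genes of coagulation and matrix 8 were higher, such as F10, coagulation factor X, at 433 and 683 against 81.0 and 148 CPM, and 3 were lower.

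The members were not uniform, and MHC class II split them most sharply. Cuts for 3 states were set after the values had been seen. With over 20 UMIs per 10000 summed over H2-Aa, H2-Ab1, H2-Eb1 and Cd74, 14 vehicle (15.6%, 8.77–24.7) and 17 LNP-CRISPR members (18.9%, 11.4–28.5) were MHC class II-rich. Few cells lay near that cut: no vehicle and 1 LNP-CRISPR cell had 20 to 50 per 10000, while the medians of the MHC class II-rich cells were 359 and 328. Of the rest, 59 and 54 had over 5 UMIs per 10000 of Ly6c2 and Chil3, and 17 and 19 were low in both. All 3 states were present in both libraries in shares whose intervals overlap.

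**Figure D1:**
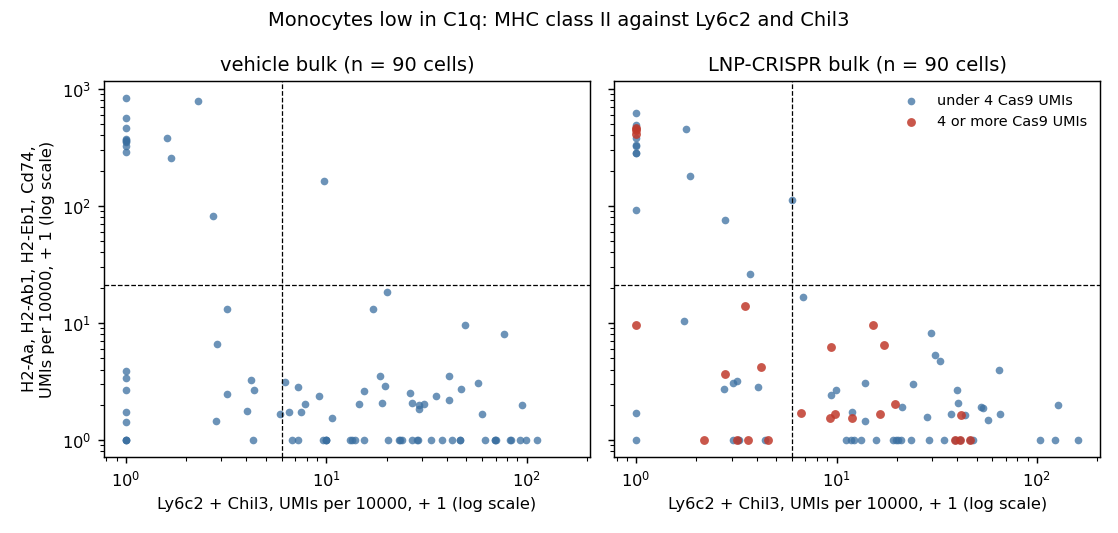
Each point is 1 member, with Ly6c2 plus Chil3 on the horizontal axis and 4 MHC class II genes on the vertical axis, both as UMIs per 10000 plus 1 on log scales, for vehicle (left) and LNP-CRISPR (right); dashed lines are the cuts of 5 and 20, and red points have 4 or more Cas9 UMIs. The 14 and 17 MHC class II-rich members stand apart above the horizontal line, and red points lie on both sides of it.

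The MHC class II-rich members carried genes found in dendritic cells. Of them 9 of 14 in vehicle and 12 of 17 in LNP-CRISPR had no Ly6c2 or Chil3 UMI. A further 21 and 13 barcodes were kept out of the members by Flt3 alone. Whether the MHC class II-rich cells derive from monocytes or are dendritic cells without a Flt3 UMI was not tested. The C-type lectin Cd209a stood at 501 CPM in vehicle and 198 CPM in LNP-CRISPR, and at no more than 1.33 CPM in the other states. It was found in 10 of 14 and 7 of 17 of these cells, and 1 LNP-CRISPR cell held 51 of 72 UMIs. Mgl2, another lectin, was at 634 and 418 CPM and had no UMI in the other states. Il1b, encoding interleukin 1β, was also highest here, at 2451 and 1911 CPM against 565 and 493 CPM in the Ly6c2 and Chil3-rich cells. Those latter cells held the classical programme: Plac8 at 1116 and 1382 CPM, and Thbs1, the matrix and platelet protein thrombospondin 1, at 7979 and 9855 CPM. The cells low in both also held Thbs1 (6805 and 8952 CPM). In them Spp1 (osteopontin) stood at 884 and 5550 CPM, the platelet factor gene Pf4 at 184 and 2511 CPM, and Arg1 (arginase 1) at 491 and 1085 CPM. Single cells weighed on these levels: of the LNP-CRISPR UMIs, 1 of the 19 cells held 340 of 634 for Pf4 and 1 held 464 of 1401 for Spp1. For Il1b in the MHC class II-rich cells, 1 vehicle cell held 411 of 738 UMIs and 1 LNP-CRISPR cell 248 of 695.

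Cas9 RNA was present in monocytes of the LNP-CRISPR library and was not detected in those of the vehicle library. Vehicle members held 0 Cas9 UMIs, and a floor of 3 counts over the group stands at 2.19 CPM. LNP-CRISPR members held 529, or 387 CPM (355–422, exact Poisson), at least 177-fold higher than that floor. At least 1 Cas9 UMI was found in 57 of 90 LNP-CRISPR members (63.3%, 52.5–73.2) and at least 4 in 24 (26.7%, 17.9–37.0). Over all 1152 kept barcodes of that library the shares were 69.5% and 39.9% and the level 1285 CPM, each above that of the monocytes. The median member had 1 and the highest had 93, 64 and 63, which together made 41.6% of the total. Without the highest cell the level was 320 CPM.

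Monocytes ranked below stromal cells and macrophages and above lymphocytes and glia in Cas9. The stromal cells defined by Pdgfra held 1547 CPM (1527–1567), and C1q-high macrophages 668 CPM (622–716), so monocytes stood at 0.250 (0.229–0.273) and 0.580 (0.518–0.648) of those levels. Neutrophils held 888 CPM, but 331 CPM without 1 cell of 407 UMIs, beside 320 CPM for monocytes without their highest cell. T or NK cells held 133 CPM (97.2–178), dendritic cells 37.8 (20.1–64.6) and glial cells 28.0 (9.09–65.3). Glial and T or NK cells were taken as a gauge of free RNA, but whether they took up particles was not tested. At least 1 Cas9 UMI was found in 11.1% of glial cells at a median of 10006 UMIs and in 33.3% of T or NK cells at 8919.5. The share was 46.7% of dendritic cells at 22272 and 63.3% of monocytes at 14423. With every cell thinned to 2000 UMIs, 25.6% of monocytes (16.9–35.8) kept a Cas9 UMI, against 53.5% (48.7–58.3) of stromal cells, 46.3% (32.6–60.4) of C1q-high macrophages, 37.9% (27.7–49.0) of neutrophils, 11.1% (3.11–26.1) of T or NK cells and 5.88% (0.149–28.7) of glial cells. Of dendritic cells 6.67% (0.169–31.9) kept one. Over all kept barcodes, without 163 of lower depth, the share was 41.2% (38.1–44.3). The thinned shares left out 10 stromal cells, 38 neutrophils, 1 macrophage and 1 glial cell of lower depth.

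Within the monocytes Cas9 was uneven between states and depths. The MHC class II-rich cells held 148 CPM (112–194), the Ly6c2 and Chil3-rich cells 293 (256–335) and the cells low in both 1010 (890–1142). Without the highest cell of each, the same order stood at 57.4, 209 and 650 CPM. T or NK cells without theirs stood at 78.2 CPM, above the MHC class II-rich cells. After thinning, 5.88% (0.149–28.7) of the MHC class II-rich cells kept a Cas9 UMI. The share was 33.3% (21.1–47.5) of the Ly6c2 and Chil3-rich cells and 57.9% (33.5–79.7) of the cells low in both. Depth moved with the Cas9 level. The 5 members under 5000 UMIs held 167 of the 529 Cas9 UMIs, or 11653 CPM, the 44 members from 5000 to 15000 UMIs held 503 CPM, and the 41 deeper ones 148 CPM. The member with 93 Cas9 UMIs had 3575 UMIs in all, of which 12.3% were mitochondrial. Barcodes removed by the filter held 18540 CPM, and how much of the Cas9 in shallow members was free RNA was not tested.

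**Figure D2:**
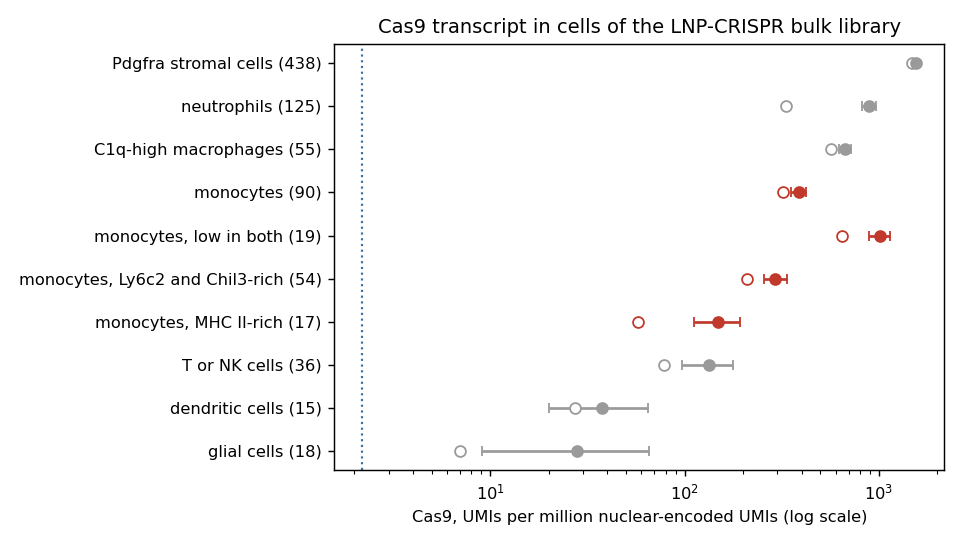
Cas9 level in cell groups of the LNP-CRISPR bulk library, as UMIs per 1000000 nuclear-encoded UMIs on a log scale; filled points are sums over cells with exact Poisson 95% intervals, open points leave out the highest cell, red marks the monocytes and their states, numbers in brackets are cells, and the dotted line is the 3-count floor in vehicle monocytes (2.19 CPM). Monocytes at 387 CPM lie between C1q-high macrophages at 668 CPM and T or NK cells at 133 CPM.

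Monocytes rich in and free of Cas9 were compared within the LNP-CRISPR library. The 24 members with 4 or more Cas9 UMIs and the 33 with none had similar median depths, 14542 and 15392 UMIs, but not the same mix of states. Cells low in both were 8 of the 24 and 5 of the 33, and MHC class II-rich cells 3 and 7. Of 3866 genes compared, 119 (3.08%) were at least 2-fold higher in the Cas9-rich cells, also without the highest cell of each set, and 156 (4.04%) at least 2-fold lower. Il1rn, the secreted antagonist of the interleukin 1 receptor, stepped from 344 CPM in Cas9-free cells to 673 with 1 to 3 Cas9 UMIs and 1271 with 4 or more, a ratio of 3.70 (3.11–4.41). It was found in 19 of 33 Cas9-free and 20 of 24 Cas9-rich cells, and vehicle members stood at 157 CPM, below all 3. By state Il1rn stood at 1232 CPM in the cells low in both, 702 in the Ly6c2 and Chil3-rich and 300 in the MHC class II-rich cells of this library, and the part of the mix of states was not tested. Inhba, the activin A subunit, was at 34.7, 324 and 409 CPM in the same order, with vehicle at 31.4 CPM. It was found in 7 of 33 Cas9-free and 8 of 24 Cas9-rich cells.

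Crip1, a small zinc-binding LIM protein gene, was lower in the Cas9-rich cells. It was found in 33 of 33 Cas9-free and 22 of 24 Cas9-rich cells, at 4402 and 2075 CPM. Ccr2, a gene of the member rule and so given as a description, stood at 664, 485 and 323 CPM with no, 1 to 3 and 4 or more Cas9 UMIs. Apoe (1077 and 2280 CPM) and Spp1 (1497 and 3280 CPM) were higher in the Cas9-rich cells, but both were lowest in the cells with 1 to 3 Cas9 UMIs, at 756 and 1046 CPM. Of the 23 classical monocyte genes 6 had a ratio over 1, with a median log2 ratio of −0.42. Of 16 tissue macrophage genes with at least 20 UMIs 13 did, with a median of 0.33. Over all 4925 genes 2391 did, with a median of −0.02. Among the NF-κB genes, targets of the transcription factor of inflammation, 25 of 31 had a ratio over 1 (median 0.54), and 6 passed the 2-fold rule, Il1rn, Cxcl1, Relb, Ccl2, Ccl7 and Nfkb2, named after their values were seen. The interferon list stood at a median of 0.00, with Cxcl10 and Ifi27l2a (1197 and 588 CPM) passing the rule downward, named after their values were seen, and none upward. Of all genes compared 3.08% passed upward and 4.04% downward.

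Arg1 was lower in the Cas9-rich cells, at 612 CPM in Cas9-free and 210 CPM in Cas9-rich cells, and was found in 7 and 4 of them. Stromal RNA moved with Cas9: the 8 stromal markers summed to 395 CPM in Cas9-free and 1271 CPM in Cas9-rich cells. Several genes higher in the latter were abundant in stromal cells, such as the metallothionein Mt2 (122 and 1254 CPM, 6471 CPM in stromal cells), Cxcl1 (104 and 937, 4593 in stromal cells) and Mfap5 (12.8 and 167, 1544 in stromal cells). Single Cas9-rich cells held much of these: 295 of 325 UMIs of Cxcl1, 49 of 58 of Mfap5 and 259 of 435 of Mt2. Without the highest cells the ratios went from 8.99 to 2.60, from 13.1 to 2.76 and from 10.2 to 6.66. Il1rn was at 3.30 CPM in stromal cells, while its level in neutrophils, given below, was above that of each of these monocyte groups. The part of stromal or neutrophil RNA in these results was not tested.

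**Figure D3:**
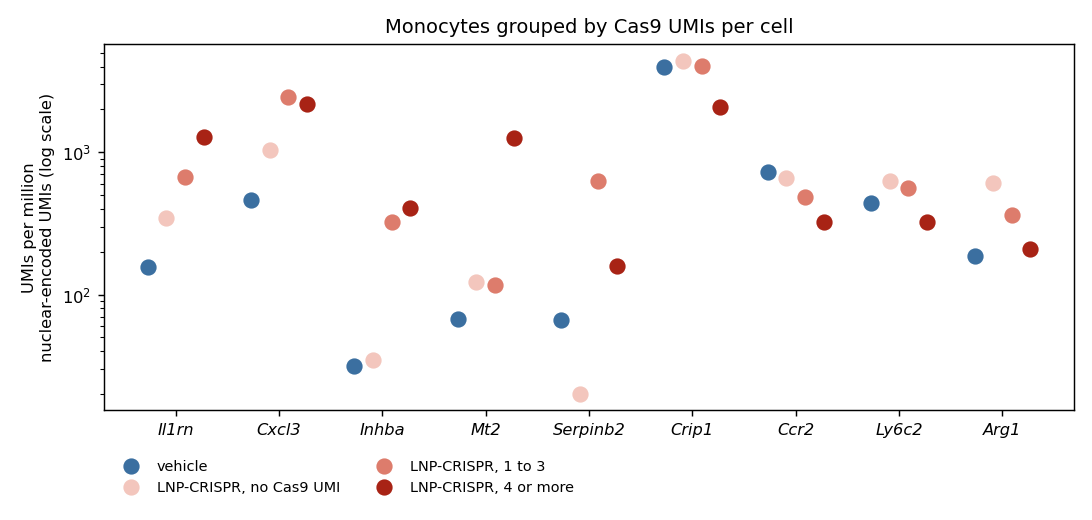
Level of 9 genes in vehicle members (blue, 90 cells) and in LNP-CRISPR members with no (33 cells), 1 to 3 (33 cells) and 4 or more (24 cells) Cas9 UMIs, as UMIs per 1000000 nuclear-encoded UMIs on a log scale, without error bars. Il1rn steps up from 157 CPM in vehicle to 1271 CPM in the Cas9-rich cells, while Crip1 is at 3983 CPM in vehicle and 2075 CPM in the Cas9-rich cells.

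Between the treatments most genes of the monocytes were at like levels. Of 6670 genes with at least 30 UMIs in the 2 libraries together, 124 (1.86%) were at least 2-fold higher in LNP-CRISPR members and 105 (1.57%) at most 0.5 of the vehicle level. Each call also had to hold without the cell of highest count in each library. The well measured calls were mainly upward: 29 higher but 9 lower genes had 100 or more UMIs. Over all 7584 genes with at least 20 UMIs the median log2 ratio was −0.03.

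Ranked by the interval bound nearest 1, the 10 highest genes were Cxcl5, S100a8, Lyz1, Plpp3, Fst, Ppbp, Hba-a2, Inhba, Saa3 and Mt2, and several of them rested on few cells. For Cxcl5 1 LNP-CRISPR cell held 198 of 214 UMIs, and for Fst 58 of 60. S100a8, a calcium-binding protein gene that neutrophils express at 31215 CPM in this library, was at 19.7 CPM in vehicle and 419 CPM in LNP-CRISPR members, a ratio of 21.3 (14.5–32.6). It was found in 19 and 55 members, and 542 of its 573 LNP-CRISPR UMIs lay in the Ly6c2 and Chil3-rich cells. At least 5 UMIs of S100a8 and S100a9 were held by 16 LNP-CRISPR members and no vehicle member. Whether these UMIs came from the monocytes or from RNA of neutrophils was not tested. Inhba, found in 11 vehicle and 24 LNP-CRISPR members, was at 31.4 and 230 CPM (ratio 7.33, 5.31–10.3) and the ratio was 8.51 without those 16 members. Mt2 was at 67.8 and 408 CPM, a ratio of 6.01 (4.82–7.57), but 3.33 with equal weight per cell and 2.55 after thinning.

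**Figure D4:**
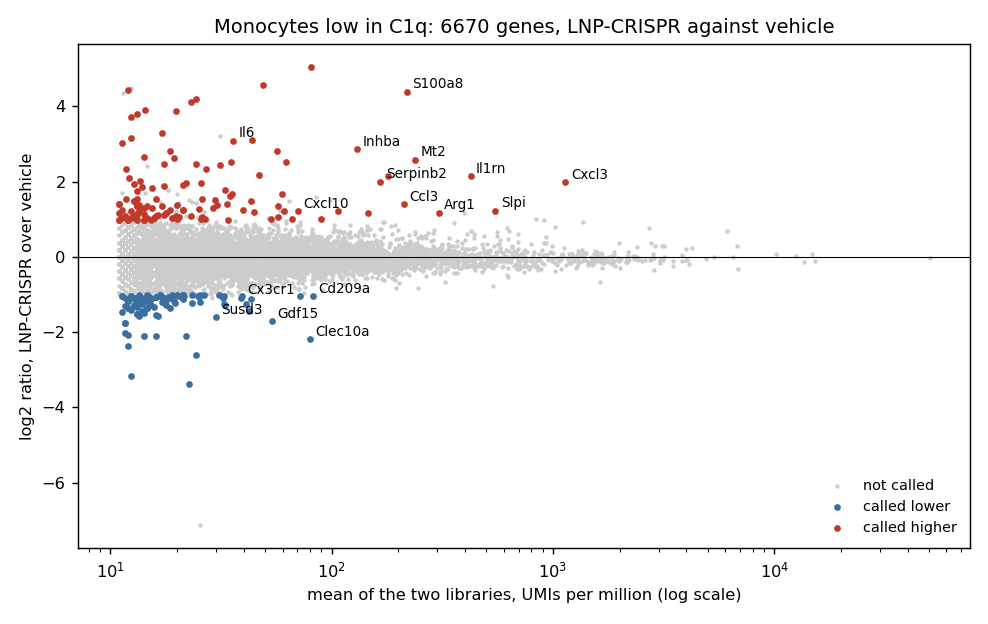
Each point is 1 of 6670 genes in the members, with its mean level over the 2 libraries on the horizontal axis (UMIs per 1000000, log scale) and the log2 ratio of LNP-CRISPR over vehicle on the vertical axis; red and blue points passed the 2-fold rule with and without the highest cells. Il1rn and Cxcl3 stand out among abundant genes, and most called genes lie at low levels.

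The NF-κB list leaned upward with LNP-CRISPR, and its called genes encode secreted signals. All 34 NF-κB genes had at least 20 UMIs, 30 of them had a ratio over 1, against 47.7% of all genes, and the median log2 ratio was 0.33. Il1rn, Il6, Cxcl3, Cxcl1 and Ccl3 passed the 2-fold rule upward and none downward, beside 1.86% and 1.57% of all tested genes. Cxcl3, which attracts neutrophils through Cxcr2, had 630 UMIs in 38 vehicle members and 2485 in 58 LNP-CRISPR members, or 460 and 1819 CPM, a ratio of 3.96 (3.62–4.33). Its median cell had 0 and 6.5 UMIs, and its highest 79 and 299. Il1rn had 215 UMIs in 44 and 947 in 61 members, or 157 and 693 CPM, a ratio of 4.42 (3.81–5.15), with medians of 0 and 3. Both genes kept ratios of at least 3.64 under equal weights, thinning and each exclusion of members tried here.

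Ccl3, a chemokine for monocytes and lymphocytes, stood at 116 and 307 CPM (2.65, 2.20–3.20), found in 31 and 55 members. The related chemokine Cxcl2 was the most abundant of the list at 4697 and 7590 CPM (1.62, 1.57–1.67) and fell short of 2-fold. Il6 was at 7.29 and 64.4 CPM, found in 7 and 23 members. Cxcl1 was at 65.7 and 293 CPM, but 1 cell held 295 of its 401 LNP-CRISPR UMIs, and the ratio was 1.22 without members over 0.1% stromal UMIs. Stromal cells of this library held 4593 CPM of Cxcl1 and 1025 CPM of Il6, and the part of their RNA was not tested. For Cxcl3 the stromal level was 119 CPM and the neutrophil level 1099 CPM, below the monocyte level of 1819 CPM. Il1rn was at 1430 CPM in neutrophils, and its ratio without the 16 members with 5 or more S100a8 and S100a9 UMIs was 5.21. Il1b itself stood at 924 and 951 CPM (1.03, 0.952–1.11), so over all members the antagonist but not the cytokine differed 2-fold. By state Il1b stood at 2451 and 1911 CPM in the MHC class II-rich cells and 565 and 493 in the Ly6c2 and Chil3-rich. In the cells low in both it was at 254 and 927 CPM, and 1 LNP-CRISPR cell there held 127 of 234 UMIs.

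The starts of 3 of these 5 genes share a letter run. In the 250 bases before the RefSeq start (GRCm38.p6), the κB-like run GGANTTTCC, searched on both strands, was found in Cxcl3, Cxcl1 and Il6 and in 350 of 32851 windows of all genes (1.07%). It was not found in the window of Ccl3 or the 3 windows of Il1rn. The stretches are shown, 100 bases each with the run in capitals, because these genes are the NF-κB genes of the list that passed the rule.
Cxcl3, chr5:90785983-90786082 (+ strand): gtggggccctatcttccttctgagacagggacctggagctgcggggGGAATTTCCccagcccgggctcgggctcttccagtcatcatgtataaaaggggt
Cxcl1, chr5:90891129-90891228 (+ strand): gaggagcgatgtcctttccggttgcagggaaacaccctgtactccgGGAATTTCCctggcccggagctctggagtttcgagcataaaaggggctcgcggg
Il6, chr5:30013014-30013113 (+ strand): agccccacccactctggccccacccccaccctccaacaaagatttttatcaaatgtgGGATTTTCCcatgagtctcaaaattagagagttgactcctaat
The run begins 72, 70 and 43 bases before the start, and Cxcl3 and Cxcl1 hold the same 9 letters. A match of letters is a description and does not show binding.

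**Figure D5:**
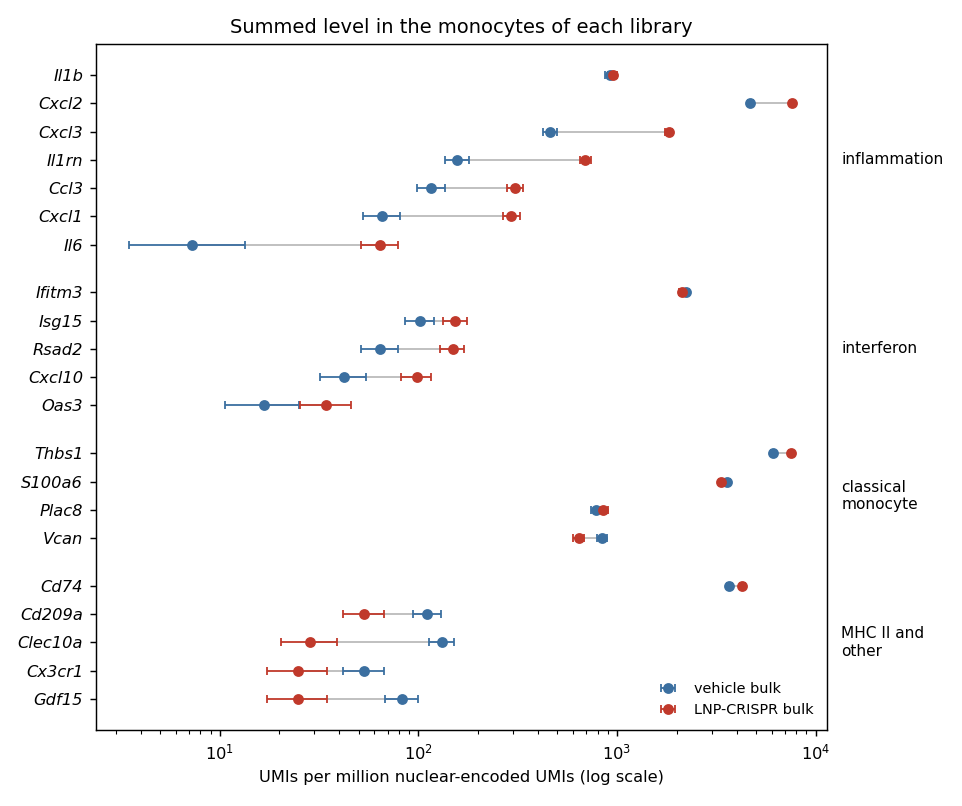
Summed level of 21 genes in the 90 vehicle (blue) and 90 LNP-CRISPR (red) monocytes, as UMIs per 1000000 nuclear-encoded UMIs on a log scale, with exact Poisson 95% intervals and a line joining the 2 libraries. The libraries are well apart for Cxcl3, Il1rn and Il6, and nearly on top of each other for Il1b, Ifitm3 and S100a6.

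Interferon-induced genes leaned upward, but in few cells. Of 41 genes, 36 had at least 20 UMIs, 29 of these had a ratio over 1, against 47.7% of all genes, and the median log2 ratio was 0.33. The median was 0.09 with equal weight per cell and 0.01 after thinning. Cxcl9, Cxcl10, Oas3, Rsad2 and Ifit1 passed the rule upward and none downward, beside 1.86% and 1.57% of all tested genes. Rsad2, encoding the antiviral protein viperin, was found in 15 vehicle and 10 LNP-CRISPR members, at 64.2 and 149 CPM (2.31, 1.79–3.01), and 1 cell held 105 of 203 LNP-CRISPR UMIs. With equal weights its ratio was 1.23, and after thinning 0.936. Cxcl10, a chemokine for T cells, was found in 10 and 18 members at 42.3 and 98.1 CPM (2.32, 1.69–3.21), or 1.40 with equal weights. Ifit1 was seen in 3 and 4 members. The most abundant genes of the list were level, with Ifitm3 at 2234 and 2137 CPM and Ifi27l2a at 1015 and 971 CPM.

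All 5 called interferon genes hold the run GAAANNGAA, part of the interferon response element, on 1 strand of the same 250-base window, as do 2342 of the 32851 windows (7.13%). Ifit1, Oas3 and Cxcl10 are shown, with the run (or its reverse, TTCNNTTTC) in capitals, since Ifit1 and Oas3 hold overlapping copies.
Ifit1, chr19:34640747-34640846 (+ strand): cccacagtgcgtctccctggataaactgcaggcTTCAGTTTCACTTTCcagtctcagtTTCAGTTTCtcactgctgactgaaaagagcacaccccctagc
Oas3, chr5:120777678-120777777 (- strand): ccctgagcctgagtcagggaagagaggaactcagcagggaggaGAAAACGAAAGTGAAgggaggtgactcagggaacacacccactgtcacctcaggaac
Cxcl10, chr5:92349040-92349139 (- strand): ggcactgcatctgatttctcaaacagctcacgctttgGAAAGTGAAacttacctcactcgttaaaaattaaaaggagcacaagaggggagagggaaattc
Ifit1 has 3 matches, 109, 103 and 84 bases before the start, Oas3 has 2, at 75 and 69, and Cxcl10 has 1, at 213, beside a κB-like run at 158. These runs are common among promoters, and nothing about the factors that act there follows from them.

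Of 23 coagulation and matrix genes tested 1 passed upward and 1 downward, beside 1.86% and 1.57% of all tested genes. Serpinb2, an inhibitor of the plasminogen activator urokinase, was found in 22 and 22 members at 66.4 and 266 CPM (4.01, 3.18–5.11), and 6.14 without the highest cells. F7, coagulation factor VII, passed downward (28.5 and 13.9 CPM). That list had the highest median, 0.45, with 18 of 23 ratios over 1, against 47.7% of all genes. Among the 18 were Spp1 (934 and 1794 CPM) and Thbs1 (6092 and 7517 CPM). Arg1, found in 19 and 18 members, stood at 186 and 423 CPM (2.27, 1.96–2.65), but 1.84 with equal weights. Slpi was at 328 and 771 CPM (2.35, 2.10–2.63), with 1456 CPM in neutrophils, and at 2.02 without the 16 members with 5 or more S100a8 and S100a9 UMIs. Named after their values were seen, Csf2rb2 (59.1 and 120 CPM), a receptor subunit of the interleukin 3 family, and Cish (16.8 and 54.2 CPM), an inhibitor induced by cytokine receptors, were also called higher. Csf2rb, the shared receptor subunit for GM-CSF, was at 456 and 778 CPM (1.71, 1.54–1.89).

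The 10 lowest genes by the same rank were Ccl22, Clec10a, Klrd1, Slc7a2, Zfp280d, Gdf15, Clec2i, Nxpe5, Sinhcaf and Susd3. Clec10a, a lectin of dendritic-like monocytes, was at 131 and 28.5 CPM, found in 19 and 20 members, a ratio of 0.217 (0.150–0.309). In vehicle 1 cell held 60 of its 180 UMIs. In the MHC class II-rich cells Clec10a stood at 555 and 66.0 CPM, found in 9 of 14 and 9 of 17. With these members left out its ratio turned to 1.23, but on few UMIs. Those were 11 and 7 in the Ly6c2 and Chil3-rich cells and 2 and 8 in the cells low in both. Cd209a, named after its values were seen, was at 111 and 53.4 CPM (0.482, 0.359–0.641), and had 1 UMI in each library outside the MHC class II-rich cells. Ccl17, of the same gene list, passed upward at 18.2 and 106 CPM. In the MHC class II-rich cells it had 25 UMIs in 3 of 14 vehicle cells and 145 in 5 of 17 LNP-CRISPR cells. Of those 145, 1 cell held 83. H2-Aa stood at 1846 and 1832 CPM and Cd74 at 3677 and 4276 CPM. For Ccl22 3 vehicle cells and 1 LNP-CRISPR cell held all UMIs. Gdf15, a stress cytokine and p53 target, was at 82.4 and 24.9 CPM (0.302, 0.199–0.446), but a single vehicle cell held 60 of its 113 UMIs, and thinning gave 1.01. Susd3, found in 39 vehicle and 16 LNP-CRISPR members, was at 45.2 and 14.6 CPM (0.324, 0.185–0.543), and Zfp280d, found in 32 and 9, at 35.7 and 8.05 CPM.

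The identity genes of the monocytes mostly fell short of 2-fold between the libraries. None of the 23 classical monocyte genes passed the rule, beside 1.86% of all tested genes upward and 1.57% downward. The list leaned upward, with 17 of 23 ratios over 1, against 47.7% of all genes. Its median log2 ratio was 0.18, and 0.29 without the MHC class II-rich members. The widest was Cd14, at 2013 and 3448 CPM (1.71, 1.63–1.80). Of 13 nonclassical genes with at least 20 UMIs, those of patrolling monocytes, Cx3cr1, the fractalkine receptor, passed downward at 53.3 and 24.9 CPM (0.467, 0.302–0.711), found in 28 and 15 members, and the median was −0.26. Among 17 measured tissue macrophage genes the median was −0.21, with Apoe at 2009 and 1271 CPM (0.633, 0.596–0.672). Fcrls passed upward (8.75 and 35.1 CPM) but turned to 0.178 without the MHC class II-rich members.

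Genes that sense, take up or digest delivered particles were set against all tested genes, of which 1.86% passed the rule upward and 1.57% downward. At such shares lists of this length hold few or no called genes, so their counts of calls say little about them. Of 16 measured RNA and DNA sensing genes, the DNA sensor Cgas passed downward at 17.5 and 8.05 CPM, the rest did not pass, and the median was −0.21. The inflammasome sensor Nlrp3 was at 212 and 181 CPM. None of the 14 measured uptake genes passed (median 0.03), with the lipoprotein receptor Lrp1 at 376 and 343 CPM and the scavenger receptor Msr1 at 437 and 432 CPM. None of the 18 lysosomal genes passed (median −0.11), with Lipa, the lysosomal lipase, furthest from 1 at 314 and 176 CPM (0.561, 0.477–0.658). Among 15 measured p53 target genes, which respond to DNA damage, Gdf15 passed downward, Cdkn1a was at 632 and 703 CPM, Mdm2 at 183 and 214 CPM, and the median was 0.03. Of 21 glycolysis and hypoxia genes 18 had a ratio over 1, with a median of 0.12 and Arg1 passing upward. Of 12 heat shock genes 2 had a ratio over 1, with a median of −0.12, against 47.7% of all genes. Medians were −0.13 for immediate early, −0.09 for NRF2 and iron, 0.04 for recruitment receptor, 0.04 for resolution and −0.01 for MHC class II and dendritic genes, beside −0.03 for all genes. In the immediate early list Egr2 passed upward (13.1 and 38.8 CPM), and in the resolution list Il1rn and Arg1 passed upward and Igf1 downward. In the MHC class II and dendritic list Ccl17 passed upward and Cd209a and Clec10a downward. Proliferation genes were scarce, with 8 of 19 reaching 20 UMIs and Mki67 found in 6 vehicle and 9 LNP-CRISPR members; Stmn1 and Mcm5 passed upward, each at 8.02 and 18.3 CPM.

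The called genes were also looked up in other cells. Of the 124 genes called higher, 57 (46.0%) were more abundant in Pdgfra stromal cells of the LNP-CRISPR library than in the monocytes, near the 44.8% of all genes compared. In neutrophils 61 (49.2%) were more abundant than in the monocytes, beside 35.8% of all genes compared. Neutrophils were 125 of the 1152 barcodes there and 29 of 1204 in vehicle. With the 16 members with 5 or more S100a8 and S100a9 UMIs left out, 101 genes were called higher and 142 lower, and with members over 0.1% stromal UMIs left out 103 and 123.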

How the data were processed

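Single-cell 3' libraries (10x Chromium v3.1, per the labels) of skeletal muscle were analysed from the deposited matrices, which hold whole-number UMI counts by gene and by barcode. Cell Ranger 7.0.1 and mm10 appear in the submitters' processing notes, but version 5.0.1 stands in the file headers. The matrices list 32285 mouse genes and the added feature Cas9. Members followed the rule given in the report, and the members and gene lists were chosen with earlier results of these data known.

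UMIs were summed over members per library and divided by their nuclear-encoded UMIs (1370816 in vehicle, 1366436 in LNP-CRISPR). Shares have exact Clopper-Pearson intervals, levels exact Poisson and ratios exact conditional binomial intervals. PCR duplicates had been collapsed to UMIs, and intervals cover counting error only. Genes with at least 30 UMIs were called at 2-fold (a side left at 0 was set to 3 UMIs) with and without the highest cell. List medians used genes with at least 20 UMIs and a pseudocount of 0.5 UMI. Genes named in the text were the 10 highest and 10 lowest called genes by interval bound (predicted genes, with symbols in Gm or Rik, counted only: 3 and 4), Cas9, the genes of the rule, the 4 most abundant and 2 widest of each list, and the 10 highest and lowest against macrophages. Others are said to be chosen after their values were seen, or illustrate a count, and 1 gene is not reported here.

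The calling step was tested on simulated data in which all cells shared 1 profile, apart from genes changed on purpose. States, single cells of high count and RNA from other cells were thus not covered. Alternatives were a stricter filter, C1q per 10000 UMIs, 4 marker UMIs, Scrublet (scanpy 1.11.5), stromal limits, equal weights, thinning to 2000 UMIs (seed 1), gene filters and TMM scaling (edgeR 4.0.16). Scrublet marked 5 and 3 barcodes and no member, so it removed nothing here and doublets may remain among them. Promoter windows are RefSeq's (GRCm38.p6), and Python 3.11.15 with scipy 1.17.1 was used.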

Additional observations from a re-analysis of the deposited data

How the results depend on the processing

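The share ratio of the monocytes ranged from 0.859 to 1.04 over 8 alternatives, all within its counting interval, and was 1.14 with neutrophils left out of the total. The Cas9 level of 387 CPM was 318 with the stricter filter, 309 with C1q limited per 10000 UMIs, 294 with 4 marker UMIs, 320 without the highest cell, 923 with equal weight per cell, 959 after thinning to 2000 UMIs, 474 without the MHC class II-rich members and 245 without members over 0.1% stromal UMIs (the last 2 chosen after seeing the data). The 2 higher values weigh the 5 shallow members as much as any other. The 124 genes called higher became 51 after thinning, 29 with at least 100 UMIs per gene and 562 with at least 1, and the 105 called lower became 17, 9 and 437, since these settings change how many genes can pass. The NF-κB median stayed between 0.25 and 0.51, while the interferon median of 0.33 came to 0.01 after thinning. Some called genes in the text changed direction. Without the MHC class II-rich members these were Clec10a (1.23, on few UMIs), Fcrls (0.178) and Cd209a (1.07, on 1 UMI per library). Fst did so without members over 0.5% (0.697) or 0.1% (0.713) stromal UMIs. It also did without the members with 5 or more S100a8 and S100a9 UMIs (0.832). After thinning Gdf15 (1.01), Mcm5 (0.672), Rsad2 (0.936) and Sinhcaf (2.02) did, and with equal weights Ifit1 (0.995). The cause was not tested, except that thinning leaves few UMIs of rare genes. No paired analysis was possible because there is 1 library per group. Genes under 30 UMIs were left out by choice, since few UMIs give wide intervals, and no setting replaces replicate animals.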
